A study of Mus musculus with 8 samples.

Results

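Genes of radial glia and of the early astrocytes that descend from them were followed in the P1 cortex of BAF complex mutants. They were 10 genes matched by symbol among the 48709 genes listed: *Fabp7*, *Slc1a3*, *Slc1a2*, *Pax6*, *Sox2*, *Sox9*, *Hopx*, *Tnc*, *Aldh1l1* and *Aldoc*. All 10 were among the 16287 genes that passed the filter on low counts. Radial glia are the neural stem cells of the developing cortex, and their long fibres carry newborn neurons from the ventricular wall towards the pia. Around birth many of them stop making neurons and turn into astrocytes or ependymal cells, so that radial glial genes and astrocyte genes are read from the same tissue. The genes cover a lipid carrier (*Fabp7*), both glutamate transporters of astroglia (*Slc1a3* and *Slc1a2*), transcription factors of stem cells (*Pax6*, *Sox2* and *Sox9*), a homeodomain protein (*Hopx*), a matrix protein (*Tnc*) and a pair of metabolic enzymes (*Aldh1l1* and *Aldoc*).

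RNA from 4 control and 4 dcKO_Nex-Cre libraries of whole cortex at P1, postnatal day 1, was compared. In the mutant, floxed alleles of BAF155 (*Smarcc1*) and BAF170 (*Smarcc2*), core subunits of the BAF chromatin remodelling complex, were deleted by Nex-Cre. That Cre line acts in postmitotic projection neurons, so radial glia, astrocytes and interneurons were not its target. The controls were heterozygous for both floxed alleles (BAF155fl/+, BAF170fl/+) and Cre negative, which leaves the Cre allele as a further difference between the groups. All mice were kept on the C57BL6/J background. The sample labels give control or mutant, the replicate number and the age, whereas the Cre line and the alleles are given in the study's methods. The labels do not say that the libraries came from separate animals, and p-values measure only the spread between these samples, which may be technical.

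Between 17958641 and 35191912 reads per library were assigned to genes. In the dcKO_Nex-Cre cortex the mean level of *Smarcc2* was 56.9% and that of *Smarcc1* 69.2% of control, with adjusted p = 0.00267 and 0.0348 in edgeR's quasi-likelihood test, calls that held in 8 and 2 of the 8 fits that leave out a library. Of the mutants, replicates 1 and 2 shared lane tag 2 with the whole control group, and replicates 3 and 4 had lane tag 8, where there was no control. Lane tag 8 and the mutant genotype can therefore be told apart only through dcKO_Nex-Cre replicates 1 and 2. Mitochondrial genes took the largest share of counts of their group in control replicate 2 (6.87%) and dcKO_Nex-Cre replicate 4 (6.15%), against 2.33% to 4.24% in the other 6 libraries. Levels are given as CPM, counts scaled to a common library size by the TMM method, with the SD over 4 libraries. Adjusted p-values are from edgeR's quasi-likelihood test over all 16287 genes, with a threshold of 0.05.

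*Fabp7* had the lowest log2 fold change of the 10 genes. It encodes brain lipid-binding protein, a fatty acid carrier that fills radial glia and is a classical Notch target. The gene (ENSMUSG00000019874) lies on the forward strand at chr10:57784881-57788450 (GRCm38). Its level was 1604, 1604, 1427 and 1702 CPM in control replicates 1 to 4 and 1006, 900.2, 1237 and 1349 CPM in dcKO_Nex-Cre replicates 1 to 4. Every dcKO_Nex-Cre library was below every control library, and the pair of lane tag 8 were the highest of the mutants. The mean was 1584 ± 114.3 CPM in control and 1123 ± 206.2 CPM in the dcKO_Nex-Cre cortex (SD, n = 4 each), or 70.9% of control. The log2 fold change was -0.50 (SE 0.13, 95% confidence interval -0.77 to -0.22), and the difference missed the threshold with an adjusted p of 0.114 in edgeR's test. A two-sided exact permutation test of the CPM gave p = 0.0286, the smallest value that 70 regroupings of 4 against 4 libraries can give.

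The call of *Fabp7* depended on the fit. With the 4 control and 2 dcKO_Nex-Cre libraries of lane tag 2, the log2 fold change was -0.73 (SE 0.11, edgeR adjusted p = 0.0192), and with the lane tag as a covariate it was also -0.73 (SE 0.11, edgeR adjusted p = 0.0311). The Wald test of DESeq2 gave -0.49 with an adjusted p of 0.00883. Without dcKO_Nex-Cre replicate 4 the value was -0.59 (edgeR adjusted p = 0.0153), while the other 7 fits that leave out a library did not pass the threshold. Over 17 alternative settings the sign never changed, and the adjusted p ranged from 0.00883 to 0.325.

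*Hopx* was the second gene whose groups did not overlap. It encodes a small homeodomain protein that does not bind DNA itself and that marks subsets of radial glia and adult neural stem cells. The gene (ENSMUSG00000059325) lies on the reverse strand at chr5:77086988-77115121. Its level was 24.6, 27.0, 22.2 and 25.7 CPM in control replicates 1 to 4 and 18.2, 19.1, 21.5 and 19.4 CPM in dcKO_Nex-Cre replicates 1 to 4. The highest mutant and the lowest control library were close together. Means were 24.9 ± 2.01 CPM in control and 19.6 ± 1.40 CPM in the dcKO_Nex-Cre cortex, or 78.7% of control. The log2 fold change of -0.35 (SE 0.09, 95% confidence interval -0.55 to -0.14) had an adjusted p of 0.131 in edgeR's test, and the exact permutation test gave p = 0.0286. DESeq2 placed *Hopx* just past the threshold (adjusted p = 0.0450), whereas no edgeR or limma-voom fit did, and over the 17 alternatives the adjusted p ranged up to 0.349. An antisense gene, *Hopxos*, overlaps 27.2% of the exonic bases of *Hopx* but had a mean of 4.40 counts per library, against 517.8 for *Hopx*.

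None of the 10 genes passed the threshold in the comparison of all libraries, beside 0.884% of all genes tested (144 genes, 0.375% higher and 0.51% lower). At an unadjusted p under 0.05, 1 of the 10 was higher and 2 were lower, beside 13.6% of all genes. Separation of the groups was found for 2 of the 10, both lower, whereas 4.01% of all genes were separated downwards and 8.0% in either direction. The median log2 fold change of the 10 genes was -0.02, beside 0.00 over all genes tested, with 4 values above and 6 below 0. In whole tissue, fewer cells of a type and less RNA per cell cannot be told apart, and this holds for every gene described here.

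**Figure D1:**
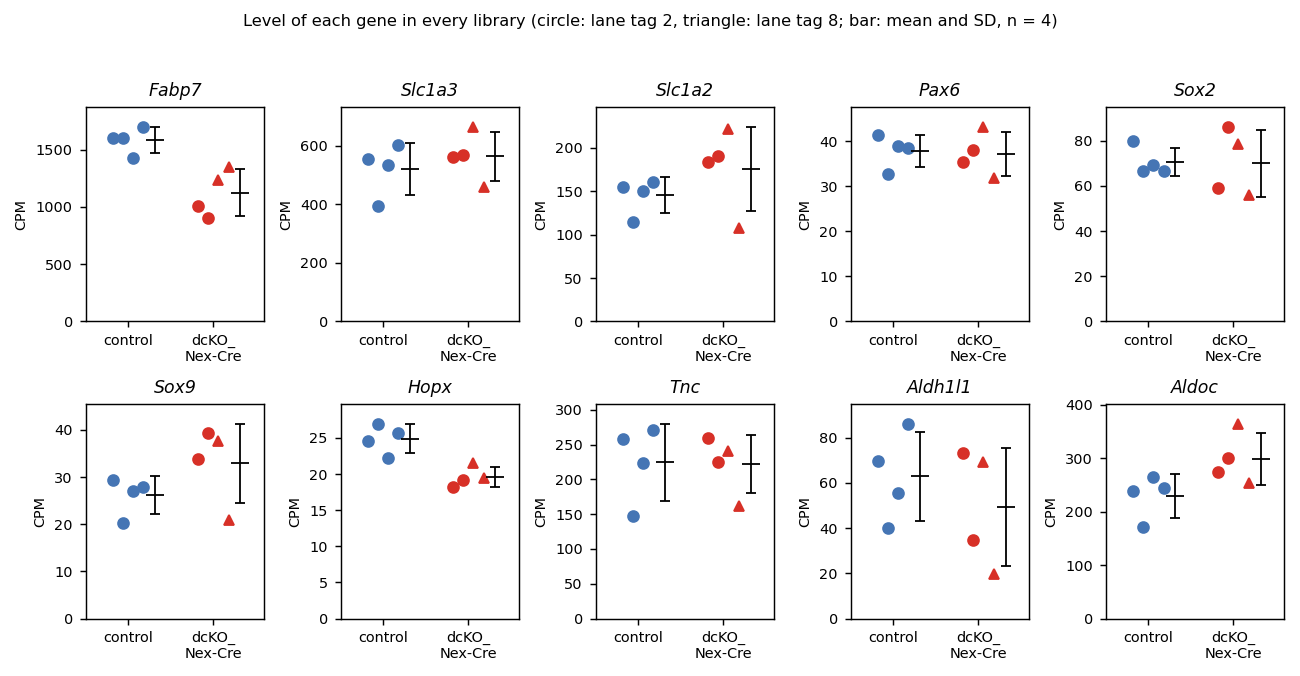
CPM of each of the 10 genes in every library (points, on linear axes that start at 0), with circles for lane tag 2, triangles for lane tag 8, and the mean and SD of 4 libraries beside them. The dcKO_Nex-Cre points of *Fabp7* (900.2 to 1349 CPM) and *Hopx* (18.2 to 21.5 CPM) lie below all control points, and the points of the other 8 genes overlap between the groups.

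The promoters of *Fabp7* and *Hopx* are shown because these were the genes whose libraries were separated. Each window is the RefSeq sequence on GRCm38.p6 from 250 bases before to 50 bases after a transcript start, read 5′ to 3′ on the strand of the gene, at chr10:57784673-57784972 (forward) for *Fabp7* and at chr5:77095218-77095517 and chr5:77115074-77115373 (both reverse) for *Hopx*. Capitals mark the RBPJ core TGGGAA (reverse complement TTCCCA), the letters read by the DNA-binding partner of Notch, and the CCAAT box (reverse complement ATTGG), a common promoter element.
Fabp7: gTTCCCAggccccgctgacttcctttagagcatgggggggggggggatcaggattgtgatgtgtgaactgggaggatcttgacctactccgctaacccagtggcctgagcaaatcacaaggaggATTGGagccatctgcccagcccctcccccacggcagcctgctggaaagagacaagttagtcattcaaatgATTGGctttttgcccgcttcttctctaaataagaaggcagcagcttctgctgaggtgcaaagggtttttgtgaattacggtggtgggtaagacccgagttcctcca
Hopx, inner start: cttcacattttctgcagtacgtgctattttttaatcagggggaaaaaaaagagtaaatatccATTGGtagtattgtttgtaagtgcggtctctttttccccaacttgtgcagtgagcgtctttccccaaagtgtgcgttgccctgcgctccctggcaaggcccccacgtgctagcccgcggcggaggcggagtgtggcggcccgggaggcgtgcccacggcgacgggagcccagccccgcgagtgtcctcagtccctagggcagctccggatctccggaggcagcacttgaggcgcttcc
Hopx, outer start: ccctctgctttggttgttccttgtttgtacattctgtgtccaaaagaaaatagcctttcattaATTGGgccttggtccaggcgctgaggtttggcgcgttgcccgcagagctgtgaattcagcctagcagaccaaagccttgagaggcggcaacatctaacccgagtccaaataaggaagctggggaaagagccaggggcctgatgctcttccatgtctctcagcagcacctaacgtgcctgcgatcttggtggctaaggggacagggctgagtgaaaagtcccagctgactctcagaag
The *Fabp7* window holds 1 RBPJ core, 249 bases before the start, and CCAAT boxes at 126 and 56 bases before it. Both *Hopx* windows hold a CCAAT box, 188 and 187 bases before their starts, and no RBPJ core. RefSeq promoters were matched for 9 of the 10 genes, all but *Sox9*, 13 windows in all. The RBPJ core was found in 6 of these 13 windows (*Aldh1l1*, *Aldoc*, *Fabp7* and *Tnc*) and in 25.6% of 32851 mouse promoters. The CCAAT box was in 7 of 13 (*Aldh1l1*, *Fabp7*, *Hopx*, *Pax6*, *Slc1a3* and *Sox2*) and in 37.4%. Windows of a gene can overlap, as for *Tnc*, where a site was counted more than once. A SOX core, ACAATG (reverse complement CATTGT), was in none of the 13 and in 12.6% of all promoters. Both strands were searched, and the RBPJ core and the CCAAT box can share the letters TGG, which they did not do in the windows shown. A match of so few letters is a description of the window, and RBPJ or SOX binding was not measured.

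Neither of the astroglial glutamate transporters passed the test with all libraries. *Slc1a3* encodes GLAST, which radial glia carry before birth and astrocytes keep, and it lies on the reverse strand at chr15:8634124-8710764 (ENSMUSG00000005360). Its level was 553.3, 392.9, 533.5 and 601.0 CPM in control and 562.0, 566.3, 665.1 and 458.0 CPM in the dcKO_Nex-Cre libraries. The groups overlapped, and the lowest library of each was control replicate 2 and dcKO_Nex-Cre replicate 4. With means of 520.2 ± 89.5 and 562.9 ± 84.6 CPM, the log2 fold change was 0.11 (95% confidence interval -0.20 to 0.42, edgeR adjusted p = 0.743).

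*Slc1a2* encodes GLT-1, the transporter that mature astrocytes use to clear most synaptic glutamate, and lies on the forward strand at chr2:102658659-102790784 (ENSMUSG00000005089). The control libraries measured 154.6, 115.0, 150.6 and 160.9 CPM, and the dcKO_Nex-Cre libraries 183.7, 190.4, 222.0 and 107.3 CPM. Replicates 1 to 3 of the mutant were above all controls, and replicate 4 was below them. The means were 145.3 ± 20.6 and 175.8 ± 48.7 CPM, and the log2 fold change of 0.28 (SE 0.19, 95% confidence interval -0.14 to 0.69) did not pass the test (edgeR adjusted p = 0.533). Without dcKO_Nex-Cre replicate 4 it was 0.46 and passed (edgeR adjusted p = 0.0377), with adjusted p-values from 0.0141 to 0.830 over the 17 alternatives.

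The ratio of *Fabp7* to *Slc1a3* within a library, a quantity chosen after the values were seen, was 2.90, 4.08, 2.68 and 2.83 in control and 1.79, 1.59, 1.86 and 2.95 in the dcKO_Nex-Cre libraries. The first 3 mutant libraries were below all controls, and replicate 4 was within the control range. The mean ratio was 3.12 ± 0.647 in control and 2.05 ± 0.611 in the mutant, and the mean log2 ratio differed by -0.63 (mutant minus control), which an exact permutation test did not separate from the spread between libraries (p = 0.114, two-sided, n = 4 each).

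Among the transcription factors, *Pax6*, which directs cortical progenitors towards glutamatergic neurons, measured 41.4, 32.8, 38.9 and 38.5 CPM in control and 35.4, 38.1, 43.3 and 31.9 CPM in dcKO_Nex-Cre libraries (chr2:105668900-105697364, forward strand, ENSMUSG00000027168). *Sox2*, which keeps neural stem cells undifferentiated, measured 79.95, 66.8, 69.3 and 66.7 CPM in control and 58.9, 86.3, 78.6 and 56.1 CPM in the mutant (chr3:34650405-34652461, forward strand, ENSMUSG00000074637). For both genes the mutant libraries spanned the whole control range. The log2 fold changes were -0.03 for *Pax6* (95% confidence interval -0.26 to 0.21, edgeR adjusted p = 0.932) and -0.01 for *Sox2* (95% confidence interval -0.31 to 0.28, edgeR adjusted p = 0.974).

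*Sox9*, which drives the switch of neural stem cells to gliogenesis, had a less even pattern (chr11:112782224-112787760, forward strand, ENSMUSG00000000567). Its level was 29.4, 20.3, 27.1 and 27.8 CPM in control and 33.9, 39.4, 37.6 and 20.9 CPM in the dcKO_Nex-Cre libraries. As for *Slc1a2*, only replicate 4 of the mutant was not above all controls, and it lay at the level of control replicate 2. The means were 26.1 ± 4.04 and 33.0 ± 8.37 CPM, with a log2 fold change of 0.34 (SE 0.18, 95% confidence interval -0.06 to 0.74, edgeR adjusted p = 0.435). Leaving out dcKO_Nex-Cre replicate 4 gave 0.50 (edgeR adjusted p = 0.0292), and over the 17 alternatives the adjusted p ranged from 0.0101 to 0.694.

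*Tnc* encodes tenascin-C, a matrix glycoprotein laid down by radial glia and young astrocytes (chr4:63959785-64047015, reverse strand, ENSMUSG00000028364). It measured 257.6, 146.8, 223.9 and 270.7 CPM in control and 259.7, 225.4, 241.2 and 162.3 CPM in the dcKO_Nex-Cre cortex. Again the lowest values were those of control replicate 2 and dcKO_Nex-Cre replicate 4, and the log2 fold change was -0.02 (95% confidence interval -0.43 to 0.40, edgeR adjusted p = 0.977).

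*Aldoc*, the brain form of the glycolytic enzyme aldolase and an astrocyte marker, had the highest log2 fold change of the 10 genes (chr11:78322968-78327781, forward strand, ENSMUSG00000017390). Control libraries measured 238.2, 170.9, 264.9 and 243.7 CPM and dcKO_Nex-Cre libraries 273.2, 300.0, 364.4 and 252.4 CPM. The mutants were higher apart from replicate 4, which was below the third control. The means were 229.4 ± 40.7 and 297.5 ± 48.7 CPM, or 129.7% of control, and the log2 fold change was 0.37 (SE 0.15, 95% confidence interval 0.06 to 0.69). Its adjusted p was 0.291 in edgeR's test and did not reach the threshold under any of the 17 alternatives, of which the lowest gave 0.0575. The exact permutation test gave p = 0.0571.

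*Aldh1l1* encodes a folate-metabolising dehydrogenase that is used as a general marker of astrocytes (chr6:90486427-90600203, forward strand, ENSMUSG00000030088). It was the most variable of the 10 genes, at 69.6, 40.2, 55.3 and 86.2 CPM in control and 73.1, 34.7, 69.4 and 19.6 CPM in the dcKO_Nex-Cre libraries. The groups overlapped, with means of 62.8 ± 19.7 and 49.2 ± 26.2 CPM, and the coefficient of variation was 31.3% in control and 53.3% in the mutant. The log2 fold change of -0.35 had a confidence interval of -1.31 to 0.61 (95%, edgeR adjusted p = 0.738), so that neither a fall nor a rise of the size seen for *Fabp7* could be told from no change.

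**Figure D2:**
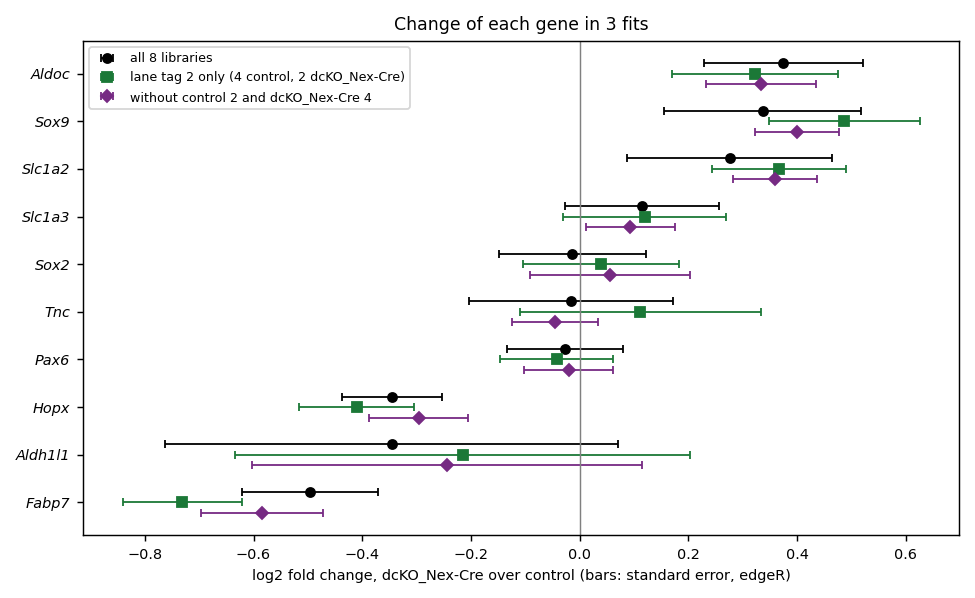
Log2 fold change of each gene (dcKO_Nex-Cre over control, horizontal axis) with its standard error from edgeR in all 8 libraries (circles), in lane tag 2 only (squares) and without control replicate 2 and dcKO_Nex-Cre replicate 4 (diamonds). *Fabp7* was at -0.50, -0.73 and -0.58 in these fits, and the values of *Sox2* and *Tnc* changed sign between fits.

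The lower values of most genes were found in the same libraries. Control replicate 2 was the lowest of its group for 7 of the 10 genes, and dcKO_Nex-Cre replicate 4 was the lowest of its group for 8 of 10. The median difference from the control mean over the 10 genes, on the log2(CPM + 1) scale, was -0.33 in control replicate 2 and -0.31 in dcKO_Nex-Cre replicate 4, against 0.04 to 0.19 in the other 6 libraries. These were also the libraries with the highest mitochondrial shares, and the part of RNA quality or tissue composition in these values was not tested. *Fabp7* and *Hopx* did not follow this pattern in either group. Control replicate 2 had the highest level of *Hopx* in control and an average level of *Fabp7*. Among the mutants, replicate 4 had the highest level of *Fabp7* (1349 CPM), and its level of *Hopx* (19.4 CPM) was above that of replicate 1 (18.2 CPM).

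Without both of these libraries, an alternative chosen after seeing the data, *Sox9* (log2 fold change 0.40, edgeR adjusted p = 0.0101) and *Slc1a2* (0.36, edgeR adjusted p = 0.0141) rose and *Fabp7* fell (-0.58, edgeR adjusted p = 0.0122). That made 2 of the 10 genes higher, beside 5.49% of all genes in the same fit, and 1 lower, beside 5.5%. Without dcKO_Nex-Cre replicate 4 alone the same 3 genes passed, beside 7.73% of all genes. *Fabp7* was the only one of the 10 that passed within lane tag 2, where 1.48% of all genes did, and with the lane tag as a covariate, where 0.319% did. DESeq2's test called *Fabp7* and *Hopx*, beside 2.81% of the genes it tested, and edgeR's test with no filter on low counts called *Fabp7*, beside 0.86%.

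**Figure D3:**
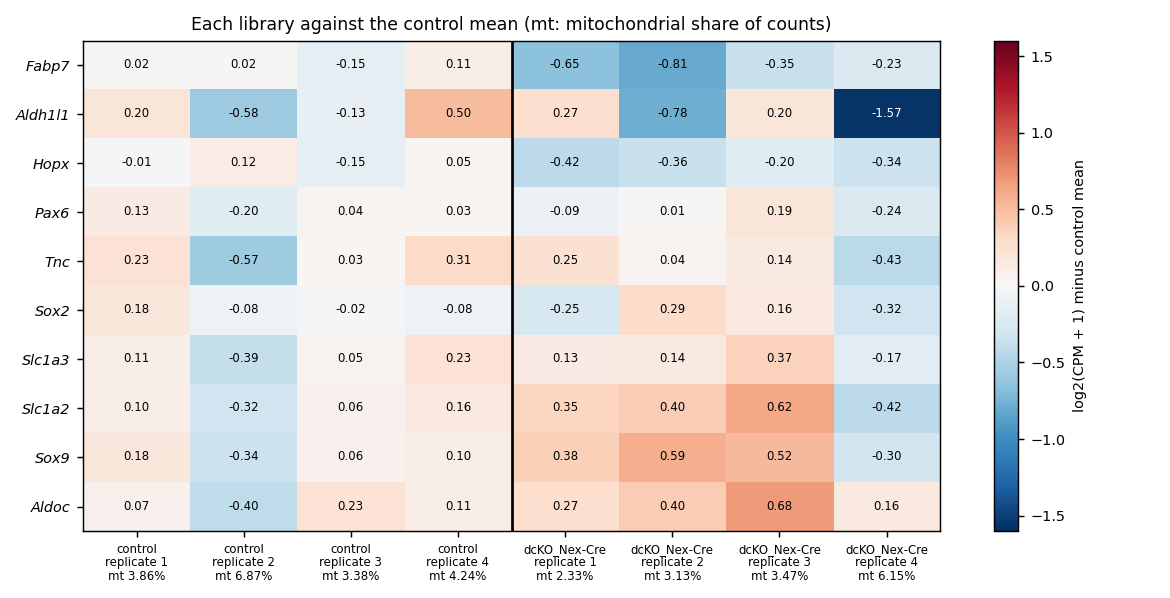
Each cell is the level of a gene (rows) in a library (columns) on the log2(CPM + 1) scale minus the control mean, blue for lower and red for higher, with the mitochondrial share (mt) of the library under its name. *Fabp7* and *Hopx* are blue in all 4 dcKO_Nex-Cre columns, and the columns of control replicate 2 and dcKO_Nex-Cre replicate 4 are blue for most genes.

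Levels were also compared between genes as CPM per kilobase of exon, a scale that allows for gene length. In control, *Fabp7* stood at 1267 CPM per kilobase, above *Aldoc* (70.3) and *Slc1a3* (60.9), whose libraries overlapped. *Sox2* (34.4) and *Tnc* (28.9) came next and overlapped, followed by *Hopx* (16.4), *Aldh1l1* (13.9) and *Slc1a2* (11.1), each overlapping its neighbour, and then *Sox9* (6.32) and *Pax6* (3.24). In the dcKO_Nex-Cre cortex *Fabp7* remained the highest at 898.4 CPM per kilobase and *Pax6* the lowest at 3.18. The order was otherwise the same except that *Slc1a2* (13.4) came before *Hopx* (12.9) and *Aldh1l1* (10.9), with overlap between these neighbours.

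The pattern of *Fabp7* over the 8 libraries was compared with that of 16286 other genes by the root mean square difference of log2(CPM + 1) after each gene was centred, where 0 means equal profiles and the median gene was at 0.345. Nearest were *Barhl2* (0.0413), a homeobox gene with 3.66 CPM in control and 2.37 CPM in the mutant, and *Arhgdig* (0.0597). At the low level of *Barhl2* the added 1 CPM shrinks differences between libraries. The fitted log2 fold change was -0.64 (SE 0.22) for *Barhl2* and -0.49 for *Arhgdig*, beside -0.50 for *Fabp7*. *Cav2* (0.0890), which encodes a caveolin, *Ppp1r1a* (0.0922), which encodes an inhibitor of protein phosphatase, and *Gabra4* (0.0956), which encodes a subunit of the GABA-A receptor, followed. The log2 fold changes of *Cav2*, *Ppp1r1a* and *Gabra4* were -0.58, -0.59 and -0.52, given as a description, since a gene chosen for its likeness to *Fabp7* over these libraries is lower in the mutant by that choice. None of these 5 genes belongs to the radial glial or astrocyte lists. Of the other 9 radial glial and astrocyte genes *Hopx* was nearest to *Fabp7* (0.174, rank 159), and the others were at 0.342 to 0.662.

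Radial glial genes as a group were examined in a list of 40 further genes of Notch signalling, cell fate and the radial fibre, all of which were tested. Of these, 29 log2 fold changes were above and 11 below 0, with a median of 0.06. *Emx1*, a homeobox gene of cortical progenitors that projection neurons also express, fell from 21.9 ± 3.01 to 14.4 ± 0.547 CPM (log2 fold change -0.60, SE 0.11, edgeR adjusted p = 0.0332), and no gene rose, beside 0.51% of all genes that fell and 0.375% that rose. This call held in 1 of the 8 fits that leave out a library, that without dcKO_Nex-Cre replicate 4. Over these 8 fits the edgeR adjusted p ranged from 0.000301 to 0.140. *Fam107a*, an actin-associated gene of outer radial glia, measured 7.1, 8.6, 3.3 and 8.6 CPM in control and 34.4, 21.7, 37.8 and 11.5 CPM in the dcKO_Nex-Cre cortex. Its groups did not overlap, and the log2 fold change of 1.94 (SE 0.39) had an adjusted p of 0.0549 in edgeR's test. Leaving out 1 library gave edgeR adjusted p-values of 0.00343 to 0.249. *Dbi*, which encodes the acyl-CoA binding protein, was at 297.2 ± 25.0 and 224.1 ± 36.4 CPM (log2 fold change -0.41, edgeR adjusted p = 0.148). DESeq2's test called *Emx1*, *Fam107a* and *Dbi*, beside 2.81% of the genes it tested. With lane tag 2 only *Fam107a* and *Dbi* passed, beside 1.48% of all genes. With the lane tag as a covariate no gene of the list passed, beside 0.319%. The summed level of the list was 2815 to 3559 CPM in control and 2705 to 3844 CPM in the mutant libraries.

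Astrocyte genes were examined in a second list of 40 genes, of which 39 were tested. None passed the threshold in edgeR's test, beside 0.884% of all genes. DESeq2 called 1 of them, *Cst3*, beside 2.81% of the genes it tested. At an unadjusted p under 0.05, 9 were higher, beside 6.59% of all genes, and 1, *Slc7a10*, was lower, beside 7.05%. The median log2 fold change was 0.17, with 26 values above and 13 below 0. The smallest p-values belonged to *Mt1*, a metallothionein (34.6 ± 1.27 and 45.0 ± 7.84 CPM, log2 fold change 0.38, edgeR adjusted p = 0.178), *Cst3*, which encodes cystatin C (330.0 ± 10.5 and 407.0 ± 47.2 CPM, log2 fold change 0.30, edgeR adjusted p = 0.178), and *Glul*, glutamine synthetase (232.2 ± 31.6 and 317.3 ± 55.8 CPM, log2 fold change 0.45, edgeR adjusted p = 0.188).

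The call count of the astrocyte list changed with the libraries used. Without dcKO_Nex-Cre replicate 4, 9 of the genes rose and none fell (among them *Glul*, *Nfia*, *Slc4a4*, *Mt1*, *Ndrg2*, *Hepacam*, *Gfap* and *Cbs*), beside 3.98% of all genes that rose. Without control replicate 2 as well, 11 rose, *Cst3* and *Plpp3* being added, beside 5.49% of all genes. The summed CPM of the list was 4589, 3833, 4639 and 4578 in control and 5099, 5049, 5596 and 3915 in the dcKO_Nex-Cre libraries, again lowest in control replicate 2 and dcKO_Nex-Cre replicate 4. Without both libraries 6 genes of the radial glial list rose and 1 fell, beside 5.49% and 5.5% of all genes. The lists were not tested against each other.

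Relatives of the 10 genes were read beside them. Of 17 paralogs and family members 14 were tested, 11 with log2 fold changes above and 3 below 0, and none passed the threshold with all libraries in edgeR's test, beside 0.884% of all genes. DESeq2's test called *Tnxb*, beside 2.81% of the genes it tested. Without dcKO_Nex-Cre replicate 4 *Sox10* rose, beside 3.98% of all genes, and without control replicate 2 as well *Sox10* and *Tnxb* rose, beside 5.49%. With lane tag 2 only 0 passed, beside 1.48%. Among the other fatty acid carriers, *Fabp5* was at 234.8 ± 11.6 and 234.1 ± 28.3 CPM (edgeR adjusted p = 0.987), and *Fabp3* had a log2 fold change of -0.24 (edgeR adjusted p = 0.398), in a gene that overlaps *Zcchc17* on the opposite strand. Whether these differed from *Fabp7* in their change was not tested. The glutamate and neutral amino acid transporters *Slc1a1*, *Slc1a4*, *Slc1a5* and *Slc1a6* had log2 fold changes of 0.09, 0.17, 0.05 and 0.08. The closest relatives of *Sox2*, *Sox1* (0.15) and *Sox3* (0.08), and those of *Sox9*, *Sox8* (0.27) and *Sox10* (0.40), were above 0. Of these, *Sox10*, a gene of the oligodendrocyte lineage, had the smallest adjusted p (0.223 in edgeR's test), at 11.8 ± 1.43 and 15.5 ± 2.34 CPM.
For the remaining families, the tenascins *Tnr* and *Tnxb* had log2 fold changes of 0.24 and 0.81, the mitochondrial folate enzyme *Aldh1l2* 0.20 and the ubiquitous aldolase *Aldoa* -0.02. The groups of *Tnxb*, expressed at 2.29 ± 0.498 and 4.03 ± 0.803 CPM, did not overlap (edgeR adjusted p = 0.131). *Pax3* and *Pax7* had too few counts to be tested.

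**Figure D4:**
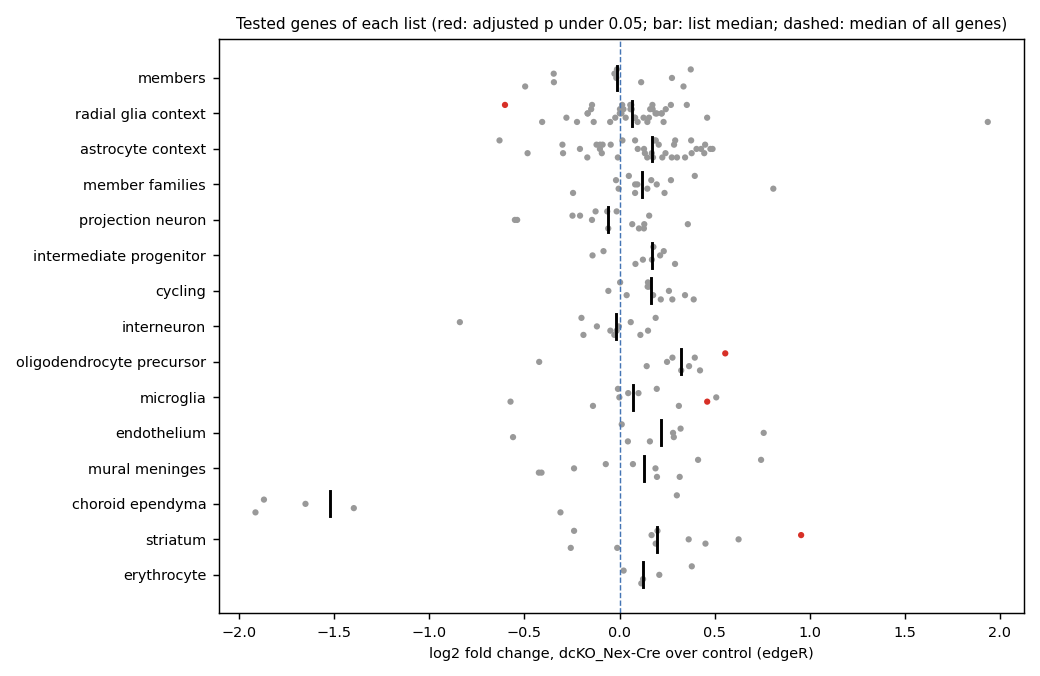
Log2 fold change (dcKO_Nex-Cre over control, edgeR) of every tested gene of the 10 genes, the 2 context lists, their families and the marker lists of other cell types (rows), with the median of each list as a bar. Genes with an adjusted p under 0.05 are red, and the medians of the 10 genes (-0.02), the radial glial list (0.06) and the astrocyte list (0.17) stand beside the dashed median of all genes (0.00).

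Markers of other cells in the tissue were summed in each library, and the counts of those that passed the test stand beside 0.884% of all genes (0.375% higher and 0.51% lower). Projection neuron markers, which define the labelled tissue, were at 1705 to 1877 CPM in control and 1641 to 1935 CPM in the dcKO_Nex-Cre cortex, and 0 of 15 passed the test. Those of intermediate progenitors were at 403.6 to 456.9 and 454.1 to 504.1 CPM (0 of 9 tested), those of cycling cells at 312.7 to 372.7 and 322.5 to 481.0 CPM (0 of 12) and those of interneurons at 973.6 to 1170 and 887.4 to 1075 CPM (0 of 12). Oligodendrocyte precursor markers were at 256.7 to 361.0 and 342.0 to 447.2 CPM, and 1 of 9, *Cspg4*, rose (log2 fold change 0.56, edgeR adjusted p = 0.0355). Microglial markers were at 125.5 to 147.4 and 129.8 to 174.4 CPM, and 1 of 10, *C1qb*, rose (0.46, edgeR adjusted p = 0.0422). Of these 10, 6 log2 fold changes were above and 4 below 0. *P2ry12* was lower in every mutant library than in any control, beside 4.01% of all genes (-0.57, edgeR adjusted p = 0.0596). DESeq2's test called 2 microglial markers higher and 1, *P2ry12*, lower, beside 2.81% of the genes it tested. Striatal markers were at 126.6 to 194.5 and 108.0 to 378.0 CPM, highest in dcKO_Nex-Cre replicate 2, and 1 of 10, *Ppp1r1b*, rose (0.96, edgeR adjusted p = 0.0400). Choroid plexus and ependymal markers varied the most, at 40.2 to 1356 and 17.5 to 586.4 CPM, and 0 of 6 tested passed. Endothelial, mural and meningeal, and red blood cell markers overlapped between the groups and none passed. The calls of *Cspg4*, *C1qb* and *Ppp1r1b* held in 1, 1 and 2 of the 8 fits that leave out a library. Adjusted p-values in these fits reached 0.132, 0.146 and 0.141 in edgeR's test. *C1qb* did not pass with lane tag 2 only or with the lane tag as a covariate. *Ppp1r1b* did not pass without control replicate 2 and dcKO_Nex-Cre replicate 4 together. No marker on these lists was at 0 in all libraries, and the part of other cells in the values of the 10 genes was not tested.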

How the data were processed

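Total RNA of P1 cortex from 4 control and 4 dcKO_Nex-Cre samples was sequenced from Illumina TruSeq libraries, and the authors deposited raw read counts for every Ensembl gene, neither normalized nor filtered. The submitters' processing notes name the mm10 (GRCm38) build, and the aligner, the counter and its strand setting are not given in the sources used here. Of 48709 genes, 48349 were matched to GENCODE M21 for symbols, positions and exon lengths. The main test was that of edgeR 4.0.16 (R 4.3.3): filterByExpr kept 16287 genes, libraries were scaled by TMM, and the groups were compared without covariates by the robust quasi-likelihood test, two-sided, with Benjamini-Hochberg adjustment. The biological coefficient of variation was 0.143. No libraries were copies of each other.

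Alternatives were DESeq2 1.42.0, its size factors in edgeR, limma-voom (limma 3.58.1), no filter or at least 10 counts in every library, the replicate block, the lane tag (read from deposited file names), and leaving out libraries. The fits were tested on simulated data with planted changes larger than those of the 10 genes, so that test does not cover changes of their size. The 10 genes and all lists were chosen with earlier results of these data known. Named genes were the 10, the deleted pair, their families, genes of the context lists with an adjusted p under 0.05 and the 3 with the smallest p, markers with an adjusted p under 0.05, and the 5 profiles nearest to *Fabp7*. *Slc7a10* and the genes called only under an alternative were named after their values were seen. Withheld genes are counted in the lists but not reported by name. Summaries used pandas 2.3.3 and plots matplotlib 3.10.9 (Python 3.11.15).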

Additional observations from a re-analysis of the deposited data

Results flagged for a closer look

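The level of *Glul*, glutamine synthetase, in control replicate 2 was 185.2 CPM, far from the 243.3 to 252.8 CPM of the other 3 control libraries. Its gap to the nearest of them was 0.86 of the range of the group, above Dixon's 95% critical value for 4 samples. It was the only such value in 32 groups of 4 libraries over 16 genes, where chance would give about 1.6 at a rate of 1 in 20.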

How the results depend on the processing

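Of 170 values of the 10 genes under 17 alternatives, 145 kept their direction and side of the threshold, 11 passed the threshold that they missed with all libraries, and 14 changed sign. The sign changes were those of *Sox2* (lane tag as a covariate 0.0375, lane tag 2 only 0.0391, without control replicate 2 and dcKO_Nex-Cre replicate 4 together 0.0558, leaving out 1 library -0.127 to 0.0815), *Tnc* (replicate block 0.0013, lane tag as a covariate 0.11, lane tag 2 only 0.11, leaving out 1 library -0.17 to 0.11) and *Pax6* (leaving out 1 library -0.107 to 0.0422), all near 0.

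Genes with an adjusted p under 0.05 numbered 144 in all, 465 with DESeq2, 259 with no filter, 52 with the lane tag as a covariate, 248 with lane tag 2 only, 1794 without control replicate 2 and dcKO_Nex-Cre replicate 4, and 18 (without control replicate 1) to 1278 (without dcKO_Nex-Cre replicate 4) with 1 library left out. They numbered 145 with DESeq2 size factors, 129 with limma-voom and 146 with at least 10 counts. Of the 10 genes 0 passed with all libraries, 2 with DESeq2, 1 with no filter, 1 with the lane tag as a covariate, 1 with lane tag 2 only, 3 without both libraries and 0 to 3 with 1 left out. Separated genes numbered 2 with all libraries, 5 with lane tag 2 only (beside 35.9% of all genes), 5 without both libraries (33.7%) and 2 to 5 with 1 left out (9.71% to 27.2%, the highest of both without dcKO_Nex-Cre replicate 4). The cause of these changes was not tested.

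The replicate block gave 54 genes, 0 of the 10 among them. Same-numbered libraries did not deviate together, with correlations of 0.13, 0.02, 0.14 and -0.14 for numbers 1 to 4. The labels do not say whether equal numbers mark pairs, and correlations between so few libraries cannot decide it. In the main test the numbers only name the libraries.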
